A study of Drosophila melanogaster with 8 samples.

Results

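The RMCE-2 stock of Drosophila melanogaster was compared with the RMCE-1 stock in eye discs from larvae of the third instar, gene by gene, over 4 of the series' 8 RNA-seq libraries. Both stocks are labelled as mir-11 and mir-998 RMCE lines, with 2 biological replicates each. RMCE is the usual short form of recombinase-mediated cassette exchange, by which a chosen sequence is swapped into a prepared site of the genome. No source used here gives the sequence that either stock received. The other 4 libraries, 2 of mir-11 KO(w-), below the knockout stock, and 2 of the wild-type strain Canton S, entered the fit to estimate the spread between replicates and are given beside the RMCE values. All animals were raised at 25 °C and each sample pooled 30 to 50 discs, per the labels, so the spread is that between pools and not between single larvae. Of 15682 identifiers counted, 11068 had enough counts over the 8 libraries to be tested.

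The eye disc is an epithelial sac in the larva from which the adult eye and antenna form, and during the third instar a wave of differentiation, the morphogenetic furrow, sweeps across it and leaves photoreceptor clusters behind. The microRNAs mir-11 and mir-998 lie in an intron of E2f1, which encodes a transcription factor of the cell cycle. In Drosophila mir-11 is known to repress the cell death genes rpr and hid, and mir-998 to repress Cbl, a negative regulator of EGFR signalling.

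Total counts per library were 13095980 and 17643039 in RMCE-2 and 16071008 and 11929158 in RMCE-1, and ran from 16656252 to 19670470 in the knockout stock and Canton S. Levels are given as CPM, counts scaled to library size with TMM factors, in the order replicate 1, replicate 2. A log2 ratio is RMCE-2 over RMCE-1 from edgeR's fit over all genes, with its standard error (SE). A gene is called when its adjusted p is under 0.05. Markers of the eye disc were present in all libraries. The proneural gene ato of the furrow stood at 39.4 and 41.8 CPM in RMCE-2 and 49.0 and 44.3 CPM in RMCE-1, and the photoreceptor gene gl at 149 and 140 CPM in RMCE-2 and 131 and 133 CPM in RMCE-1. An opsin gene of the adult eye, ninaE, stayed under 0.4 CPM in all 4, unlike the opsin gene Rh6, whose higher levels are given below.

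RMCE-1 replicate 2 stood apart from the other libraries before any comparison. The 7 genes of the Hsp70 and Hsp68 list, which encode heat-inducible chaperones and whose near-identical copies may share reads, summed to 835 and 137 CPM in RMCE-2, 42.8 and 5010 CPM in RMCE-1, 33.0 and 44.6 CPM in the knockout stock and 52.8 and 49.9 CPM in Canton S. The 8 storage and lipid-carrier genes of the larval fat body summed to 468 and 2060 CPM in RMCE-2 and 65.9 and 8460 CPM in RMCE-1. In the knockout stock they summed to 264 and 91.7 CPM, and in Canton S to 994 and 665 CPM. The 15 salivary gland genes summed to 213 and 217 CPM in RMCE-2 and 201 and 4820 CPM in RMCE-1. Their sums were 748 and 599 CPM in the knockout stock and 2410 and 1580 CPM in Canton S. For the salivary gland genes both RMCE-2 libraries and RMCE-1 replicate 1 thus lay below every knockout and Canton S library. In each of these 3 lists RMCE-1 replicate 2 was the highest of the 8 libraries, while RMCE-1 replicate 1 was at or below both RMCE-2 libraries. The replicates of RMCE-1 also differed more than those of RMCE-2: among 8174 genes at 5 CPM or more, 46 in RMCE-2 and 91 in RMCE-1 differed over 4-fold between replicates, at a median absolute log2 difference of 0.12 and 0.14. Levels are therefore given per library, and calls that were lost without RMCE-1 replicate 2 are named.

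**Figure D1:**
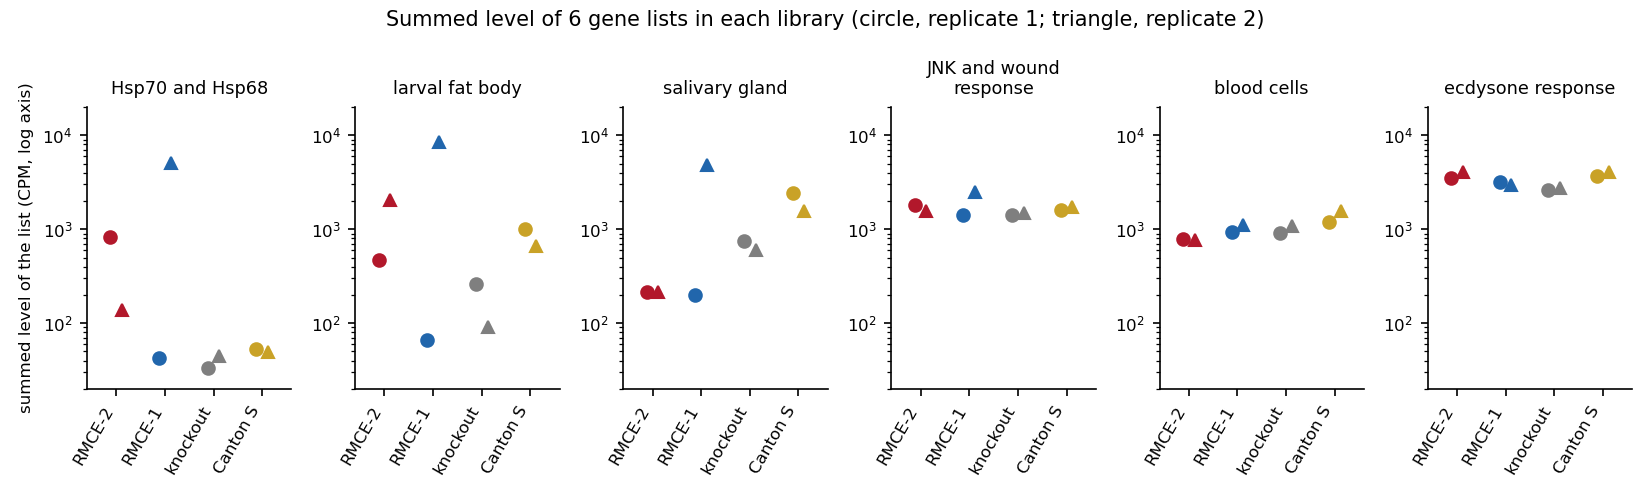
Summed level in CPM (log axis) of 6 gene lists in each of the 8 libraries, with circles for replicate 1 and triangles for replicate 2 and RMCE-2 at the left of each panel. RMCE-1 replicate 2 reaches 5010, 8460 and 4820 CPM in the first 3 lists, where RMCE-1 replicate 1 is at 42.8, 65.9 and 201 CPM.

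Between the stocks 186 genes were called at an adjusted p under 0.05 in edgeR's quasi-likelihood test, 1.68% of the genes tested. Of these 104 were higher in RMCE-2 (0.94%) and 82 were lower (0.741%). At least a 2-fold difference was found for 79 called genes (0.714%), 30 higher and 49 lower in RMCE-2, whereas of the 107 called genes below 2-fold 74 were higher and 33 lower. The libraries of the stocks did not overlap for any of the 186, nor for 41.8% of all genes tested. The median log2 fold change over all genes tested was -0.01.

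These counts depended on single libraries. Without RMCE-1 replicate 2, 65 of 11784 genes were called (0.552%), of which 49 were among the 186 (25 higher, 24 lower), and all 186 kept the sign of their difference. Without RMCE-2 replicate 1 or replicate 2, 18 genes were called. Without either knockout library 25 were called, and without Canton S replicate 1 or 2, 99 or 103. That all 186 kept their sign without RMCE-1 replicate 2 follows from libraries that did not overlap between the stocks, and lends the calls no support. A stock left with 1 library adds nothing to the estimate of the spread, and its lone library is then assumed to vary like the others. Without RMCE-1 replicate 1, 274 genes were called, and the count of genes lower in RMCE-2 was 192 instead of 82. Of the 186 genes 11 were called in all 8 fits that left out 1 library: Map205, tut, CG7213, sturkopf, CG4860, Herc4 and CG17211 among those higher in RMCE-2, and CG32373, snoRNA:Psi28S-1837a, pinta and CG18549 among those lower.

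**Figure D2:**
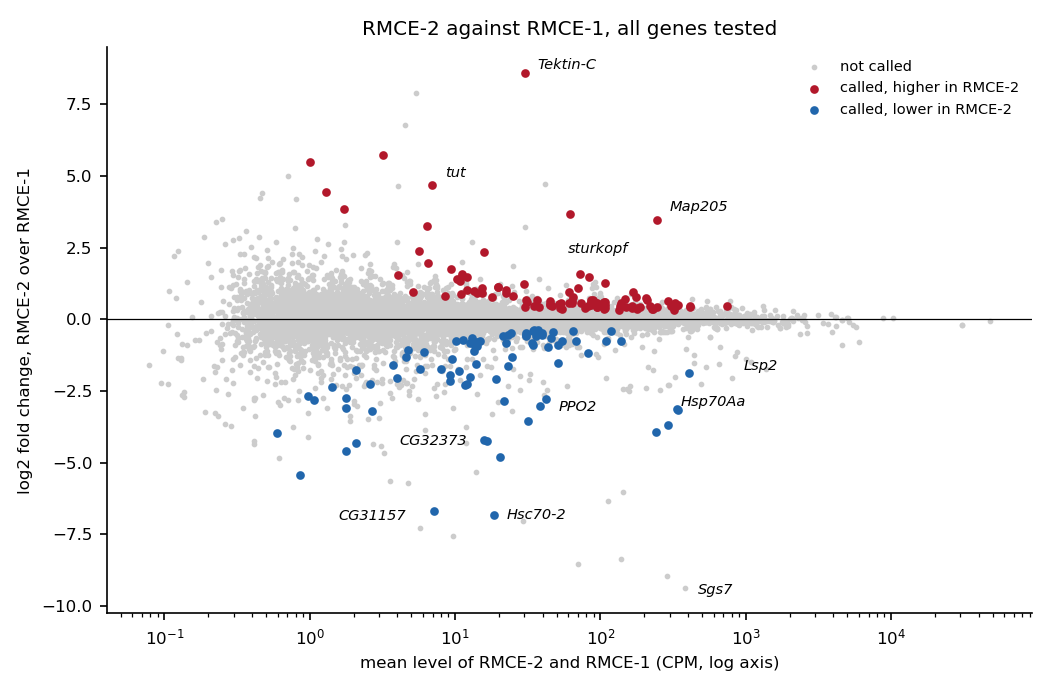
Mean level of the 2 stocks in CPM (log axis) against the log2 fold change of RMCE-2 over RMCE-1 for the 11051 genes tested that had a read in both stocks, with genes called higher in RMCE-2 in red and lower in blue. Map205 stands at a log2 ratio of 3.47 and CG32373 at -4.25, while Hsp70Aa (-2.29), Lsp2 (-2.06) and Sgs7 (-9.36) were not called.

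Map205, which encodes a microtubule-associated protein (FBgn0002645, 3R 32055279 to 32068441 in BDGP6.54), had the smallest adjusted p. Its level was 470 and 428 CPM in RMCE-2, 37.1 and 43.9 CPM in RMCE-1, 430 and 449 CPM in the knockout stock and 448 and 471 CPM in Canton S. RMCE-1 was thus the only low stock, at 40.5 ± 4.80 CPM against 449 ± 29.0 CPM in RMCE-2 (SD, n = 2 each; log2 ratio 3.47 ± 0.10 SE, adjusted p by edgeR = 4.64e-05). The call held in all 17 alternative settings.

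Tektin-C, a gene for a filament protein of axonemes, had 63.6 and 57.2 CPM in RMCE-2 and 0 and 0.343 CPM in RMCE-1, with 24.2 and 31.5 CPM in the knockout stock and 0.345 and 0.107 CPM in Canton S. In RMCE-1 and Canton S this rests on 0 to 7 reads per library, against 829 and 1026 reads in RMCE-2 (edgeR adjusted p = 0.0068, or 0.013 without RMCE-1 replicate 2). The call of Tektin-C was lost without either RMCE-2 library or either knockout library, at an adjusted p of up to 0.0881. The RNA-binding protein gene tut, known for limiting germ cell divisions in the testis, stood at 12.7 and 14.1 CPM in RMCE-2 and 0.513 and 0.515 CPM in RMCE-1 (log2 ratio 4.69 ± 0.23 SE, adjusted p by edgeR = 0.000813). The knockout stock lay between, at 6.42 and 7.84 CPM, and Canton S at 1.58 and 1.40 CPM.

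In the same stretch of 3L as tut, CG7213 had 91 and 99 reads in RMCE-2 and 2 and 1 reads in RMCE-1 (edgeR adjusted p = 0.00226). Per library size scaled with the TMM factors this was a ratio of 55.8 (exact 95% counting interval 18.8 to 273). CG7213 overlaps Dscam4 on the other strand, and no source used here gives the strand setting of the counting. Among genes below, sturkopf, CG11668, CG13028 and CG11594 likewise overlap a gene on the other strand (Ctr9, snk, CG13023 and Mul1). Further such genes include Gr64f, Pxn, Hr4 and mam (CG11593, CG16986, PIG-K and mir-4978), and CG32373, which overlaps several. Of these overlapped genes Ctr9 was itself called higher in RMCE-2. Dscam4, a cell adhesion gene of the immunoglobulin superfamily, stood at 114 and 116 CPM in RMCE-2 and 10.3 and 7.55 CPM in RMCE-1 (log2 ratio 3.68 ± 0.46 SE, adjusted p by edgeR = 0.0319). Its Canton S libraries were uneven, at 30.9 and 12.4 CPM, and its call was lost without any of the 4 RMCE libraries or the 2 knockout libraries, with the highest adjusted p by edgeR, 0.172, without RMCE-1 replicate 2.

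Among further genes higher in RMCE-2, sturkopf, which encodes a protein of lipid droplets, had 99.9 and 117 CPM in RMCE-2, 36.3 and 36.9 CPM in RMCE-1, 93.1 and 93.9 CPM in the knockout stock and 47.0 and 51.8 CPM in Canton S (log2 ratio 1.57 ± 0.09 SE, adjusted p by edgeR = 0.00122). GILT3, of a family of lysosomal thiol reductases, had 8.82 and 10.2 CPM in RMCE-2 and 1.28 and 2.40 CPM in RMCE-1 (log2 ratio 2.39 ± 0.28 SE, adjusted p by edgeR = 0.0169). For GILT3 the knockout stock was as low as RMCE-1, at 1.5 and 1.66 CPM, and Canton S as high as RMCE-2, at 12.2 and 13.3 CPM. Cuticle protein gene Cpr97Ea was likewise higher in RMCE-2 and Canton S than in RMCE-1 and the knockout stock, with 14.5 and 16.3 CPM in RMCE-2, 5.71 and 6.43 CPM in RMCE-1, 2.41 and 2.85 CPM in the knockout stock and 10.4 and 11.7 CPM in Canton S. The ion channel gene rpk, of the DEG/ENaC family, stood at 33.2 and 19.5 CPM in RMCE-2 and 5.13 and 5.32 CPM in RMCE-1 (edgeR adjusted p = 0.0169, or 0.0804 without RMCE-1 replicate 2). Calls of GILT3 and Cpr97Ea were lost without either library of RMCE-2 or of the knockout stock (adjusted p up to 0.111 for both). Further rises called with and without RMCE-1 replicate 2 were those of CG11668, CG42598, CG13028, CG41284 and CG4860, at log2 ratios of 1.75, 1.59, 1.52, 1.42 and 1.24. Of these 5, CG4860 kept its call in every fit that left out a library, while the others lost it without either RMCE-2 library, and CG11668, CG42598 and CG41284 also without either knockout library. CG41284 was called in 1 of the 8 fits, that without RMCE-1 replicate 2 (edgeR adjusted p up to 0.144 in the others). The call of rpk was lost without RMCE-2 replicate 1, either RMCE-1 library or either knockout library (up to 0.0804 by edgeR).

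Among the falls, CG32373 stood at 1.76 and 1.56 CPM in RMCE-2, 36.5 and 26.7 CPM in RMCE-1, 21.2 CPM in both knockout libraries and 2.66 and 1.99 CPM in Canton S (log2 ratio -4.25 ± 0.22 SE, adjusted p by edgeR = 0.000813). The call held in all 17 alternative settings, with an adjusted p of at most 0.0229. The gene spans 3L 7650548 to 7759123 and has 9 annotated genes within or across it, of which CG13685, on the same strand, was also lower in RMCE-2, at 0.230 and 0.781 CPM against 5.19 and 4.54 CPM in RMCE-1 (edgeR adjusted p = 0.0281, or 0.0798 without RMCE-1 replicate 2). The call of CG13685 was lost in 7 of the 8 fits that left out a library, the fit without RMCE-2 replicate 2 being the exception (up to 0.102 by edgeR).

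A guide RNA for pseudouridylation of rRNA, snoRNA:Psi28S-1837a, had 1.46 and 1.73 CPM in RMCE-2, 28.3 and 31.5 CPM in RMCE-1, 17.9 and 16.0 CPM in the knockout stock and 1.38 and 2.36 CPM in Canton S (log2 ratio -4.21 ± 0.25 SE, adjusted p by edgeR = 0.00122). It lies within CG10576 on the same strand. CG4408 was low in RMCE-2 alone, at 0.920 and 1.79 CPM in RMCE-2, 44.4 and 34.8 CPM in RMCE-1, 33.2 and 33.0 CPM in the knockout stock and 18.3 and 32.9 CPM in Canton S (log2 ratio -4.82 ± 0.41 SE, adjusted p by edgeR = 0.0117). CG31436 had 5.60 and 4.91 CPM in RMCE-2, 30.1 and 45.7 CPM in RMCE-1, 33.3 and 32.3 CPM in the knockout stock and 6.51 and 5.16 CPM in Canton S (log2 ratio -2.85 ± 0.23 SE, adjusted p by edgeR = 0.00501). The calls of CG4408 and CG31436 were lost without either RMCE-2 library, at adjusted p up to 0.0827 for both, and that of CG4408 also without either knockout library.

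**Figure D3:**
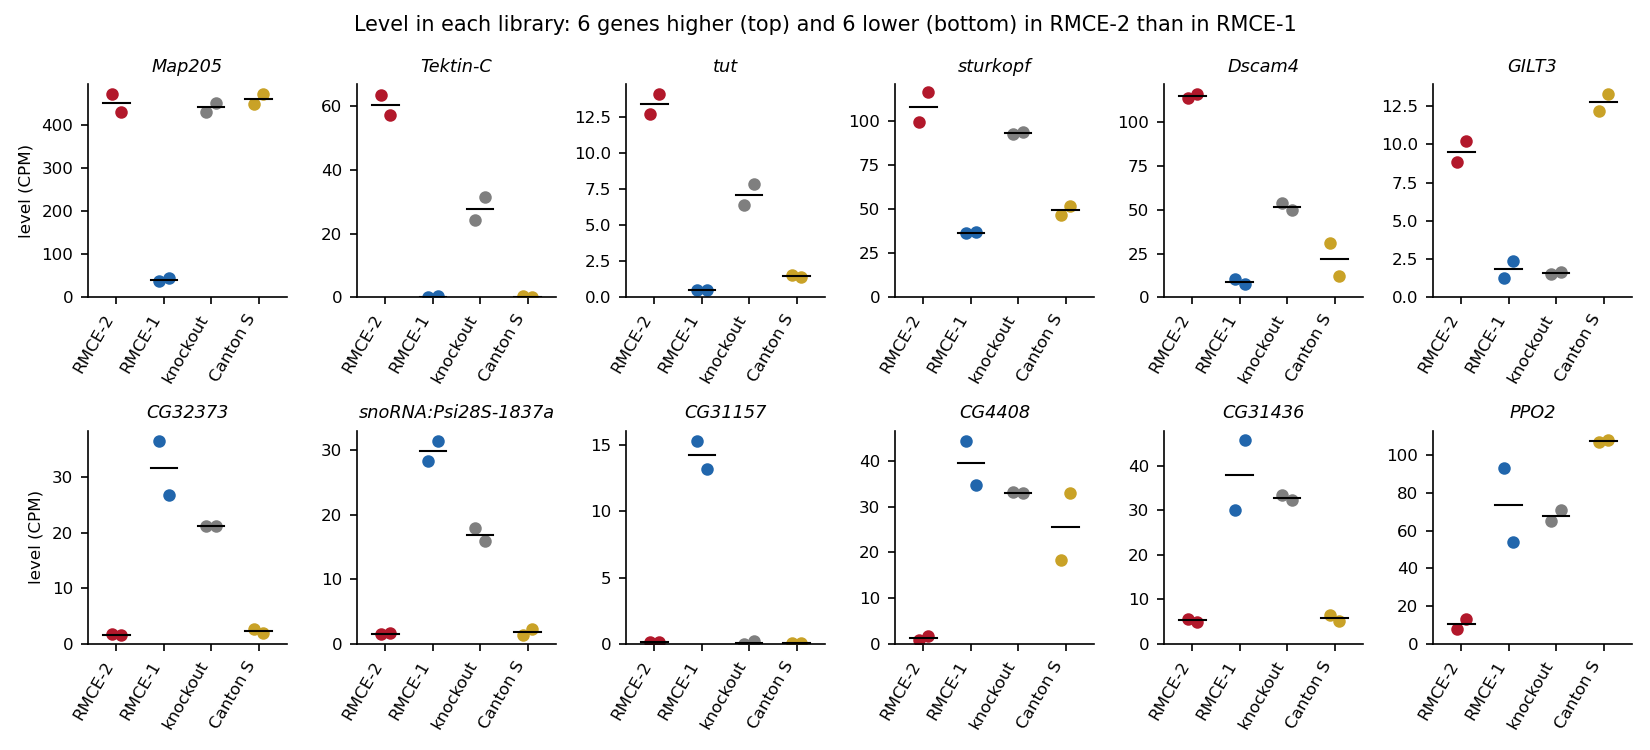
Level in CPM of 6 genes higher (top) and 6 lower (bottom) in RMCE-2 than in RMCE-1, with a point per library and a bar at the mean of each stock. Low RMCE-1 libraries stand alone for Map205, and low RMCE-2 libraries for CG4408 and PPO2, while for the other genes 1 or both of the knockout stock and Canton S share the level of the low stock or lie between.

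Many of the larger differences came from neighbouring genes. When called genes with at least a 2-fold difference were joined if less than 100 kb apart, 9 runs arose that held 35 genes, all on the arms 3L and 3R. The runs were described after the calls were known, and genes that overlap or share reads are not independent.

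The shortest dense run, 3R 13038375 to 13051453, held 4 called genes of 5 tested. In it Hsc70-2, which encodes a constitutive relative of the Hsp70 chaperone, had 0.230 and 0.391 CPM in RMCE-2, 36.5 and 37.0 CPM in RMCE-1, 0.214 and 0.238 CPM in the knockout stock and 2.07 and 0.269 CPM in Canton S (log2 ratio -6.81 ± 0.84 SE, adjusted p by edgeR = 0.0267). Its neighbour CG31157 had 0.153 and 0.112 CPM in RMCE-2 and 15.3 and 13.2 CPM in RMCE-1 (log2 ratio -6.70 ± 0.65 SE, adjusted p by edgeR = 0.00948), and CG7966 had 7.67 and 6.81 CPM in RMCE-2 and 27.4 and 34.4 CPM in RMCE-1. For these 3 genes RMCE-1 was the high stock, above all 6 other libraries. CG11668, at the start of the run, went the other way, with 14.0 and 14.8 CPM in RMCE-2 and 4.81 and 3.69 CPM in RMCE-1. Without RMCE-1 replicate 2 the calls of CG31157, CG7966 and CG11668 held (adjusted p by edgeR = 0.0355, 0.0171 and 0.0448) and that of Hsc70-2 did not (0.1). CG31157 was lost without either RMCE-2 library (up to 0.114), CG7966 without RMCE-2 replicate 2 (0.0593), and CG11668 without either library of RMCE-2 or of the knockout stock (up to 0.0868). Hsc70-2 was also lost without any other library of the RMCE or knockout stocks (adjusted p up to 0.206), although both RMCE-1 replicates read the same level, unlike the Hsp70 genes.

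On 3L, 4022700 to 4059660, lay CG11594, the gustatory receptor genes Gr64a and Gr64f and CG1136, all lower in RMCE-2. Gr64a, whose family senses sugars, had no read in either RMCE-2 library and 13.3 and 13.8 CPM in RMCE-1, from 368 reads, which makes it at least 139-fold lower in RMCE-2 at a floor of 3 counts over the stock (edgeR adjusted p = 0.0118). The knockout libraries had no read of Gr64a either, and Canton S had 1 and 0 reads. Gr64f stood at 0.153 and 0.223 CPM in RMCE-2 and 3.72 and 4.29 CPM in RMCE-1 (log2 ratio -4.33 ± 0.46 SE, adjusted p by edgeR = 0.0119). CG11594 had 4.22 and 3.68 CPM in RMCE-2 and 17.5 and 21.4 CPM in RMCE-1, and CG1136 had 14.4 and 13.6 CPM in RMCE-2 and 29.6 and 40.3 CPM in RMCE-1. Without RMCE-1 replicate 2 the adjusted p was 0.0514 for Gr64a and 0.066 for Gr64f, while CG11594 and CG1136 stayed called (0.0312 and 0.0327). The calls of Gr64a and Gr64f were also lost without either RMCE-2 library (adjusted p by edgeR up to 0.0784 and 0.108), as was that of CG11594 (up to 0.0784), and that of CG1136 without either library of RMCE-2 or of the knockout stock (up to 0.124).

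A pair of runs on 3L mixed directions. At 3L 5764258 to 5902456, Tektin-C, CG42272 and QC were higher in RMCE-2 and snoRNA:Psi28S-1837a, sncRNA:CR43603, CG5568 and CG18586 lower, among 21 genes tested. At 3L 8209577 to 8328307, tut, CG7213, Dscam4 and CG34461 were higher and CG8012 lower, among 15 tested. At 3R 25293458 to 25316116, CG31102, CG31370, CG31436 and CG10559 were all lower, 4 of 6 tested. The calls of CG5568, CG18586, QC, CG8012 and CG31102 were each lost in all 8 fits that left out a library (edgeR adjusted p up to 0.251). CG31370 was lost in all but that without RMCE-1 replicate 1 (up to 0.166), CG34461 without any RMCE or knockout library (up to 0.141), CG42272 and CG10559 without either library of RMCE-2 or of the knockout stock (up to 0.0977), and sncRNA:CR43603 without either RMCE-2 library (up to 0.0784). The 1 Mb window with the largest share of calls was 3L 5000001 to 6000000, with 8 of 77 tested genes (10.4%), and 42 of 118 windows with at least 20 tested genes held none.

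The sixth run of 3 or more genes, 3R 22423316 to 22539919, lies within 1 Mb of E2f1 (3R 21620304 to 21660871). Here pinta, which encodes a retinoid-binding protein of the eye, had 4.53 and 5.47 CPM in RMCE-2, 19.2 and 21.4 CPM in RMCE-1, 16.5 and 19.4 CPM in the knockout stock and 7.80 and 7.09 CPM in Canton S (log2 ratio -2.01 ± 0.15 SE, adjusted p by edgeR = 0.00367). The octopamine receptor gene Octbeta1R stood at 5.68 and 8.42 CPM in RMCE-2 and 20.4 and 21.1 CPM in RMCE-1, where it was high in RMCE-1 alone. CG33099, at 0.997 and 0.781 CPM in RMCE-2 and 3.33 and 5.23 CPM in RMCE-1, and CG5326, at 5.91 and 3.63 CPM in RMCE-2 and 15.0 and 18.2 CPM in RMCE-1, were lower as well, and the synaptic adhesion gene Nrx-1 was higher, at 17.7 and 18.4 CPM in RMCE-2 and 10 and 7.97 CPM in RMCE-1. These were the 5 genes called among 186 tested within 1 Mb of E2f1 (2.69%, beside 1.68% of all genes). Without RMCE-1 replicate 2 only pinta of the 5 was called, at an adjusted p of 0.0184, and the other 4 were at 0.088 to 0.13 by edgeR. Octbeta1R was lost in all 8 fits that left out a library (up to 0.18), and CG5326, CG33099 and Nrx-1 in all but that without RMCE-1 replicate 1 (up to 0.178).

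By chromosome, 58 of the 72 called genes with at least a 2-fold difference and a known position lay on 3L or 3R, 80.6% (exact 95% interval 69.5 to 88.9, over genes, which are not independent), beside 43.8% of the tested genes. The share of tested genes in this class was 1.38% on 3L and 1.16% on 3R, against 0.306% on 2L, 0.321% on 2R and 0.0593% on X, where Hr4 was the 1 such gene, and chromosome 4 held none of 86. Both directions were seen on the third chromosome, with 24 higher and 34 lower. Called genes below 2-fold were spread more evenly, at 1.04% of tested genes on the third chromosome and 0.879% elsewhere. Without RMCE-1 replicate 2 the share of 2-fold calls on 3L or 3R was 91.4%, and in the fits without 1 library it ran from 64.9% to 93.8%.

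**Figure D4:**
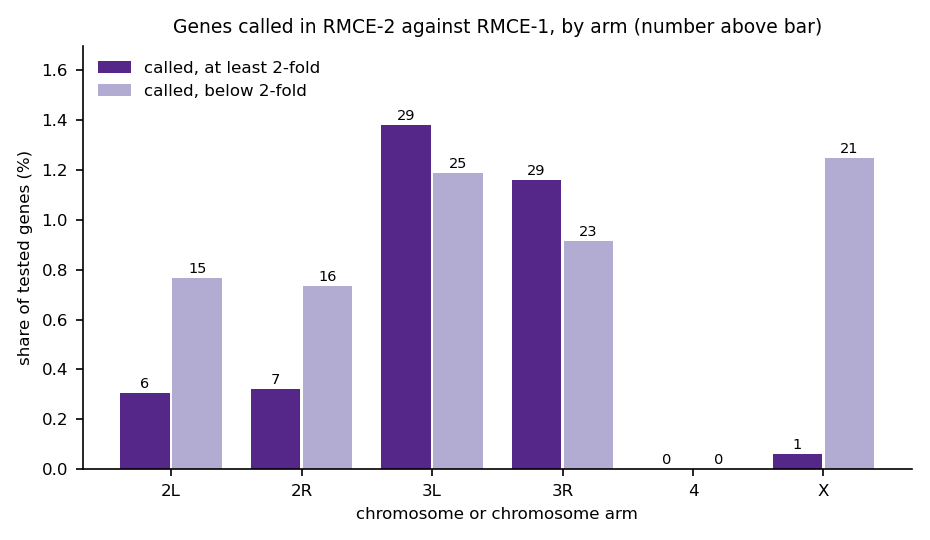
Share of tested genes on each chromosome arm (in %) that were called between RMCE-2 and RMCE-1, split into genes with at least and below 2-fold difference, with the number of genes above each bar. The dark bars are highest on 3L (1.38%) and 3R (1.16%), while the light bars are of like height on 3L, 3R and X.

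The 2 remaining stocks did not side with one RMCE stock throughout. Each called gene was described by whether its mean log2 level in the knockout stock and in Canton S was nearer to RMCE-2 or RMCE-1, a description chosen after the calls were known and without a test. Of the 79 genes with at least a 2-fold difference, RMCE-1 stood apart from all others in 22, such as Map205, Hsc70-2, CG31157 and Gr64a, and RMCE-2 in 20, such as CG4408, PPO2 and rpk. In 23 the knockout stock was nearer to RMCE-1 and Canton S to RMCE-2, such as CG32373, pinta, GILT3 and CG31436, and in 14 the reverse held, such as Tektin-C, tut, sturkopf and CG18549. All 4 patterns thus occurred among these genes.

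Each RMCE stock against the other 2 stocks gave its own counts in the same fit, which share libraries with the comparison above. Against Canton S, 3.6% of tested genes were called in RMCE-2 and 6.06% in RMCE-1. Against the knockout stock the shares were 0.578% in RMCE-2 and 0.352% in RMCE-1. Map205 was called in RMCE-1 against Canton S and against the knockout stock (log2 ratios to these stocks -3.50 and -3.44, edgeR adjusted p = 4.38e-05 and 4.89e-05), while RMCE-2 differed by -0.03 and 0.03. CG32373 differed from Canton S by -0.49 in RMCE-2 and 3.76 in RMCE-1, and from the knockout stock by -3.67 in RMCE-2 and 0.58 in RMCE-1. CG18549, lower in RMCE-2 at 11.7 and 10.9 CPM against 32.6 and 37.9 CPM in RMCE-1, had 10.8 and 12.2 CPM in the knockout stock and 40.0 and 40.7 CPM in Canton S.

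One gene differed on top of a shared difference. The sugar transporter gene sut2 stood at 29.5 and 24.2 CPM in RMCE-2, 12.4 and 12.3 CPM in RMCE-1, 0.802 and 0.772 CPM in the knockout stock and 1.28 and 1.02 CPM in Canton S. Both RMCE stocks lay above all 4 other libraries, and RMCE-2 lay above RMCE-1 (log2 ratio 1.11 ± 0.15 SE, adjusted p by edgeR = 0.0204). That last call was lost in 6 of the 8 fits that left out a library, among them the fit without RMCE-1 replicate 2 (edgeR adjusted p = 0.0798, and up to 0.128 over the 8), the exceptions being those without a Canton S library. Its relative sut1 had 51.7 and 51.6 CPM in RMCE-2 and 46.4 and 50.0 CPM in RMCE-1 (edgeR adjusted p = 0.602).

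Of 43 gene lists, which hold 1155 distinct tested genes, 15 had at least 1 called member and 28 had none. In all, 23 list members were called, 1.99% of those tested, beside 1.68% of all genes, and 10 without RMCE-1 replicate 2. Without RMCE-2 replicate 1 or 2 the number was 2 and 1, without either knockout library 5, and without RMCE-1 replicate 1 it was 62.

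The difference in the heat shock and fat body lists changed sign with 1 library. None of the 7 Hsp70 and Hsp68 genes was called, and the median of their log2 fold changes was -2.43 with both RMCE-1 replicates and 4.29 without replicate 2. Hsp70Aa stood at 176 and 23.3 CPM in RMCE-2, 5.06 and 972 CPM in RMCE-1, 4.98 and 5.05 CPM in the knockout stock and 2.37 and 4.08 CPM in Canton S (edgeR adjusted p = 0.691, or 0.409 without RMCE-1 replicate 2). The groups overlapped, since 1 RMCE-1 library was the highest of the 8 and the other was below both RMCE-2 libraries. RMCE-2 replicate 1 was itself higher than all libraries other than RMCE-1 replicate 2. Of the small heat shock genes Hsp26 had 342 and 290 CPM in RMCE-2 and 140 and 826 CPM in RMCE-1, and was not called (edgeR adjusted p = 0.774), but was without RMCE-1 replicate 2 (0.0315).

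Among 8 fat body genes none was called, at a median log2 fold change of -1.84, or 4.18 without RMCE-1 replicate 2. The storage protein gene Lsp2 had 157 and 458 CPM in RMCE-2, 13.1 and 2570 CPM in RMCE-1, 40.7 and 8.73 CPM in the knockout stock and 190 and 143 CPM in Canton S, and Fbp1, a receptor for storage proteins, had 103 and 893 CPM in RMCE-2 and 17.8 and 2380 CPM in RMCE-1. For both genes the RMCE-1 libraries were the lowest and the highest of the 4, so that the stocks overlapped. Another gene of the list, Lsp1gamma, did not follow the summed level. It had 2.45 and 0 CPM in RMCE-2 and 0.256 and 22 CPM in RMCE-1. Its level was 42.7 and 33.7 CPM in the knockout stock and 191 and 127 CPM in Canton S. For Lsp1gamma RMCE-1 replicate 2 was thus below every knockout and Canton S library. The salivary glue gene Sgs7 had 2.30 and 0.223 CPM in RMCE-2, 2.12 and 1520 CPM in RMCE-1, 55.9 and 87.1 CPM in the knockout stock and 495 and 270 CPM in Canton S (edgeR adjusted p = 0.304). None of the 14 salivary gland genes tested was called, at a median log2 fold change of -4.54, or -0.19 without RMCE-1 replicate 2. In bulk discs fewer cells of a type and less RNA per cell cannot be told apart.

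The JNK and wound response list, which holds targets of a stress kinase pathway, followed the same library. Its 19 genes summed to 1790 and 1580 CPM in RMCE-2 and 1420 and 2480 CPM in RMCE-1, and none was called. The phosphatase gene puc, a target of the pathway, stood at 103 and 70.8 CPM in RMCE-2 and 66.5 and 208 CPM in RMCE-1. The relaxin-like hormone gene Ilp8 stood at 6.14 and 0.669 CPM in RMCE-2 and 0.321 and 64.3 CPM in RMCE-1. Both were highest in RMCE-1 replicate 2 and next highest in RMCE-2 replicate 1, the same order as the Hsp70 genes. The immune receptor gene PGRP-LC, with 45.3 and 36.8 CPM in RMCE-2 and 16.2 and 25.5 CPM in RMCE-1, had an edgeR adjusted p of 0.0982, and just passed the threshold without RMCE-1 replicate 2.

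Of 13 blood cell genes 2 were lower in RMCE-2, beside 0.741% of all genes, and none was higher. PPO2, which encodes a prophenoloxidase of crystal cells, stood at 7.90 and 13.4 CPM in RMCE-2, 93.1 and 54.3 CPM in RMCE-1, 65.2 and 71.0 CPM in the knockout stock and 107 and 108 CPM in Canton S (log2 ratio -2.78 ± 0.34 SE, adjusted p by edgeR = 0.0281, or 0.0327 without RMCE-1 replicate 2). RMCE-2 was the low stock, with both its libraries below the 6 others. The identifier FBgn0261362, which has no symbol in the annotation used, had a like order, with 8.05 and 8.70 CPM in RMCE-2, 88.7 and 48.2 CPM in RMCE-1, 55.4 and 46.3 CPM in the knockout stock and 113 and 107 CPM in Canton S (edgeR adjusted p = 0.0178, and up to 0.141 without either library of RMCE-2 or of the knockout stock, where the call was lost). The matrix peroxidase gene Pxn had 49.2 and 51.5 CPM in RMCE-2 and 108 and 119 CPM in RMCE-1 (log2 ratio -1.17 ± 0.16 SE, adjusted p by edgeR = 0.0252, or 0.118 without RMCE-1 replicate 2). The other 11 genes of the list were not called, among them the phagocytosis receptor gene eater at 27.8 and 28.2 CPM in RMCE-2 and 54.7 and 49.5 CPM in RMCE-1 (edgeR adjusted p = 0.0541) and Hml at 90.0 and 76.7 CPM in RMCE-2 and 123 and 147 CPM in RMCE-1 (0.285). The calls of PPO2 and Pxn were each lost in 6 of the 8 fits that left out a library, for PPO2 in those without a library of RMCE-2, of the knockout stock or of Canton S (adjusted p up to 0.118), and for Pxn in those without a library of RMCE-2, RMCE-1 or the knockout stock (up to 0.165).

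Genes of the response to ecdysone, a steroid hormone whose pulses set off moults and metamorphosis, held 2 called members of 22, both higher in RMCE-2, beside 0.94% of all genes. The nuclear receptor gene Hr3 had 118 and 128 CPM in RMCE-2, 49.8 and 38.2 CPM in RMCE-1, 31.8 and 22 CPM in the knockout stock and 96.8 and 113 CPM in Canton S (log2 ratio 1.48 ± 0.20 SE, adjusted p by edgeR = 0.0282). Hr4, another nuclear receptor gene of the cascade, had 134 and 169 CPM in RMCE-2, 65.3 and 60.4 CPM in RMCE-1, 49.0 and 68.0 CPM in the knockout stock and 143 and 155 CPM in Canton S (log2 ratio 1.27 ± 0.18 SE, adjusted p by edgeR = 0.0281). For both, RMCE-2 was nearer to Canton S and RMCE-1 nearer to the knockout stock. Neither was called without RMCE-1 replicate 2 (edgeR adjusted p = 0.121 and 0.136), nor without RMCE-1 replicate 1 or either library of RMCE-2 or Canton S (up to 0.165 for Hr3 and 0.14 for Hr4). The receptor genes EcR and usp had 285 and 245 CPM and 66.7 and 67.0 CPM in RMCE-2, and 293 and 277 CPM and 65.0 and 63.5 CPM in RMCE-1, and were not called. The list's median log2 fold change was 0.31, with 15 of 22 above 0.

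Genes of the eye and antennal fields were mostly not called. Of 21 tested genes of the furrow and of photoreceptor fate, 2 were higher in RMCE-2, beside 0.94% of all genes. The receptor tyrosine kinase gene sev, which specifies photoreceptor R7, had 263 and 252 CPM in RMCE-2, 160 and 149 CPM in RMCE-1, 177 and 203 CPM in the knockout stock and 177 and 193 CPM in Canton S (log2 ratio 0.74 ± 0.09 SE, adjusted p by edgeR = 0.0169). The zinc finger gene salr had 81.0 and 75 CPM in RMCE-2 and 51.1 and 49.7 CPM in RMCE-1 (log2 ratio 0.63 ± 0.08 SE, adjusted p by edgeR = 0.0192). RMCE-2 was the high stock for both. The homeodomain gene ct, which acts in antennal and cone cells, had 126 and 130 CPM in RMCE-2 and 80.5 and 87.6 CPM in RMCE-1 (log2 ratio 0.61 ± 0.07 SE, adjusted p by edgeR = 0.0169), with Canton S as high as RMCE-2. Without RMCE-1 replicate 2 the adjusted p was 0.0312 for ct, 0.0586 for sev and 0.0701 for salr, and all 3 calls were lost without either library of RMCE-2 or of the knockout stock (up to 0.103). A pair of light-sensing genes, picked after their values were seen, were lower in RMCE-2, and the cells they came from were not tested. The opsin gene Rh6 stood at 55.1 and 46.0 CPM in RMCE-2 and 81.2 and 87.8 CPM in RMCE-1 (edgeR adjusted p = 0.0255). The arrestin gene Arr1 stood at 38.3 and 32.8 CPM in RMCE-2 and 65.7 and 66.8 CPM in RMCE-1 (edgeR adjusted p = 0.015). Neither of the pair was called without RMCE-1 replicate 2. Both were also lost without either library of RMCE-2 or of the knockout stock, and Rh6 without Canton S replicate 1 (up to 0.125 by edgeR). None of the 12 retinal determination genes and none of the 24 EGFR and Ras genes was called.

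Of 15 neuronal genes only brp was called, higher in RMCE-2 (6.67%, beside 0.94% of all genes). It encodes a scaffold protein of the presynaptic active zone and had 56.4 and 53.6 CPM in RMCE-2, 32.5 and 37.6 CPM in RMCE-1, 37.7 and 37.2 CPM in the knockout stock and 37.3 and 34.6 CPM in Canton S (log2 ratio 0.65 ± 0.09 SE, adjusted p by edgeR = 0.0208, or 0.0315 without RMCE-1 replicate 2). The pan-neuronal gene elav had 181 and 220 CPM in RMCE-2 and 181 and 148 CPM in RMCE-1, with overlapping libraries. Of 4 further called genes, in no list and picked after their values were seen, the cadherin gene CadN had 246 and 271 CPM in RMCE-2 and 171 and 151 CPM in RMCE-1, Sema1a 110 and 108 CPM in RMCE-2 and 67.1 and 68.0 CPM in RMCE-1, and Dscam1 123 and 121 CPM in RMCE-2 and 94.6 and 88.8 CPM in RMCE-1. The receptor gene robo2 had 261 and 256 CPM in RMCE-2 and 205 and 201 CPM in RMCE-1. None of these 4 was called without RMCE-1 replicate 2 (edgeR adjusted p from 0.0638 to 0.111) or without a library of RMCE-2 or of the knockout stock (up to 0.151), nor Dscam1 and robo2 without a Canton S library, and the call of brp was lost without either library of RMCE-2 or of the knockout stock (up to 0.124).

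In signalling and growth, mam, which encodes a co-activator of Notch, was the 1 called gene of 21 in the Notch list, at 211 and 221 CPM in RMCE-2 and 164 and 157 CPM in RMCE-1 (log2 ratio 0.43 ± 0.06 SE, adjusted p by edgeR = 0.0281, or 0.0876 without RMCE-1 replicate 2). The mitotic kinase gene aurB was the 1 of 27 in the mitosis list, at 40.5 and 41.1 CPM in RMCE-2 and 31.0 and 27.8 CPM in RMCE-1 (edgeR adjusted p = 0.0371, or 0.113). Each of these 2 calls was lost in 7 of the 8 fits that left out a library (adjusted p up to 0.150 and 0.176), the fit without RMCE-1 replicate 1 being the exception. The shares called higher were 4.76% of the Notch list and 3.7% of the mitosis list, 1 gene each, beside 0.94% of all genes. No gene was called among 20 of DNA replication and E2F targets, 17 of Hippo and Fat signalling, 16 of Wingless and JAK-STAT signalling and 18 of apoptosis and p53.

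Among short RNAs and metabolic genes, 5 of 218 tested small nucleolar RNAs were called, 1 higher and 4 lower in RMCE-2, a share of 2.29% beside 1.68% of all genes. The higher one, snoRNA:Psi28S-3342, had 217 and 224 CPM in RMCE-2, 127 and 101 CPM in RMCE-1, 184 and 181 CPM in the knockout stock and 381 and 460 CPM in Canton S (edgeR adjusted p = 0.0217). The lower snoRNA:U3:9B had 41.8 and 38.8 CPM in RMCE-2 and 71.3 and 65.8 CPM in RMCE-1 (edgeR adjusted p = 0.0169). The minor spliceosome RNA snRNA:U12 was lower too, at 98.9 and 106 CPM in RMCE-2 and 176 and 168 CPM in RMCE-1. Of 65 cytochrome P450 genes 2 were called, both lower in RMCE-2 (3.08%, beside 0.741% of all genes). Cyp4e2 had 28.9 and 30.4 CPM in RMCE-2 and 54.0 and 61.8 CPM in RMCE-1. Cyp12e1 had 9.36 and 7.81 CPM in RMCE-2 and 13.1 and 15.2 CPM in RMCE-1. No gene was called among 77 cytosolic ribosomal proteins, 70 nuclear genes of oxidative phosphorylation or 20 of the mitochondrial genome. Of these short RNAs and P450 genes, snoRNA:U3:9B (edgeR adjusted p = 0.0459) and snoRNA:Psi28S-1837a (0.013) held their calls without RMCE-1 replicate 2, and snoRNA:Psi28S-3342, snRNA:U12, Cyp4e2 and Cyp12e1 did not (0.0591, 0.0585, 0.0648 and 0.139). The other lower ones, snoRNA:185 and snoRNA:Psi18S-640a, were lost in 8 and 7 of the 8 fits that left out a library (up to 0.178). The calls of snoRNA:Psi28S-3342, snoRNA:U3:9B, snRNA:U12, Cyp4e2 and Cyp12e1 were lost without either library of RMCE-2 or of the knockout stock, and that of Cyp12e1 also without a Canton S library (edgeR adjusted p up to 0.195).

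Of the called identifiers 14 had no symbol, 6 higher and 8 lower. Among the lower ones FBgn0085777, FBgn0085769, FBgn0085823, FBgn0085768 and FBgn0085759 shared an order, with both RMCE-1 libraries above all others. FBgn0085823, for example, had 76.8 and 62.9 CPM in RMCE-2 and 820 and 415 CPM in RMCE-1. For FBgn0085768 these were 74.2 and 63.9 CPM and 793 and 406 CPM. Whether these identifiers share reads was not tested, and they may not be independent. The largest fall among them, FBgn0085777, had 23.6 and 35.8 CPM in RMCE-2, 630 and 279 CPM in RMCE-1, 105 and 86.0 CPM in the knockout stock and 67.4 and 105 CPM in Canton S (edgeR adjusted p = 0.0409, or 0.0464 without RMCE-1 replicate 2). Both RMCE-1 libraries lay above all others. The call was lost in 6 of the 8 fits that left out a library (adjusted p up to 0.214), those without a library of RMCE-2, the knockout stock or Canton S.

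The small differences followed gene length. The median summed exon length was 5154 bases for genes called higher in RMCE-2 and 1622 bases for those called lower, beside 1931 bases for all tested genes. Below 2-fold the medians were 6911 bases (higher) and 1754 bases (lower), and at 2-fold or more 1640 and 1609 bases. With the genes at 5 CPM or more split into 5 classes of equal size by rising exon length, the median log2 fold change was -0.10, -0.05, -0.04, 0.00 and 0.11. Relative to the mean of the knockout stock and Canton S, the shortest class was at -0.13 and -0.06 in RMCE-2 and 0.05 and -0.05 in RMCE-1, and the longest at 0.08 and 0.03 in RMCE-2 and -0.08 and -0.05 in RMCE-1. Both RMCE-2 libraries were thus higher for long genes than for short ones and RMCE-1 replicate 1 was lower, while RMCE-1 replicate 2 stood at the same value at both ends. The median log2 fold change without RMCE-1 replicate 2 was -0.14 in the shortest class and 0.15 in the longest. With a correction for exon length, added after the data were seen, 117 genes were called, 53 of them higher (45.3%, beside 55.9% without it). Library totals alone as the scaling gave 261 calls with 184 higher (70.5%). Of the 53 called genes named by rule, 42 kept their call under the length correction and 11 lost it, among them brp, ct, mam, Hr3, Hr4, Dscam4, CG31370, FBgn0085777 and Cyp12e1 (edgeR adjusted p from 0.0515 for Dscam4 to 0.205 for mam). The log2 ratio under it was 0.41 for brp, 0.37 for ct, 0.43 for CadN and 0.07 for Dscam1, and CadN, Sema1a, Dscam1 and robo2 also lost their calls (up to 0.758 by edgeR), as did Nrx-1 (0.102). The calls of sev and salr held (0.0346 and 0.031 by edgeR).

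**Figure D5:**
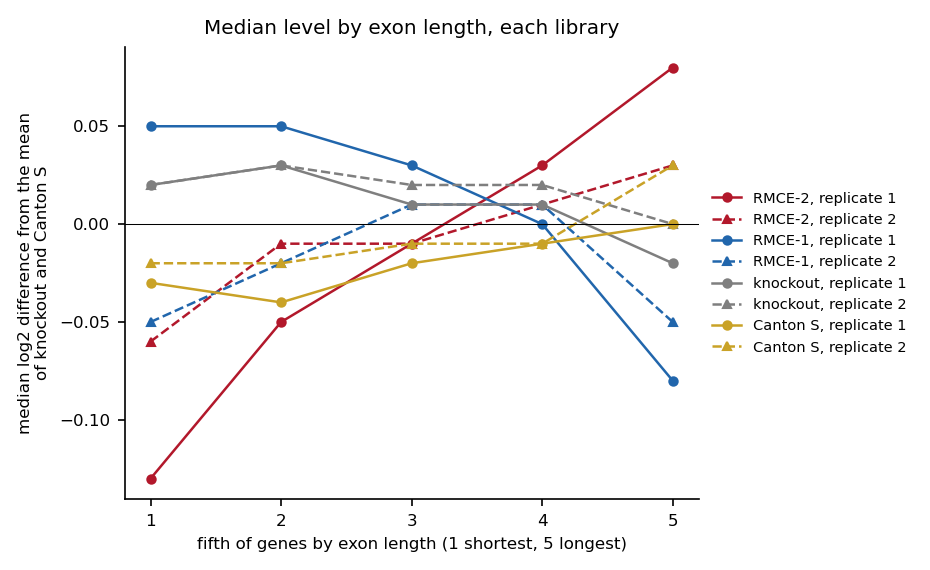
Median log2 difference of each library from the mean of the knockout stock and Canton S, for 5 classes of genes by summed exon length from shortest (1) to longest (5). RMCE-2 replicate 1 climbs from -0.13 to 0.08, while RMCE-1 replicate 1 goes down from 0.05 to -0.08, and RMCE-1 replicate 2 is at -0.05 in both the shortest and the longest class.

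At the locus itself E2f1 had 198 and 189 CPM in RMCE-2, 209 and 201 CPM in RMCE-1, 228 and 230 CPM in the knockout stock and 220 and 210 CPM in Canton S (log2 ratio -0.08 ± 0.06 SE, adjusted p by edgeR = 0.557). Both RMCE-2 libraries were below both RMCE-1 libraries, by less than the test could call. The mir-11 hairpin (3R 21622497 to 21622571) had 0 and 1 reads in RMCE-2, 0 and 0 in RMCE-1, 0 and 0 in the knockout stock and 2 and 0 in Canton S, too few to check the stocks by it in these libraries. Reads on the mir-998 hairpin (3R 21621879 to 21622021) came to 1.38 and 1.73 CPM in RMCE-2, 0.897 and 0.772 CPM in RMCE-1, 0.642 and 0.772 CPM in the knockout stock and 0.789 and 1.07 CPM in Canton S (log2 ratio 0.89 ± 0.37 SE, adjusted p by edgeR = 0.306). RMCE-2 was the highest stock for these reads, but they were not called, and reads on a hairpin within an intron may be those of the E2f1 precursor and do not measure the mature microRNA.

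The reported targets were not called either. Cbl had 60.5 and 63.9 CPM in RMCE-2 and 55.3 and 52.7 CPM in RMCE-1 (log2 ratio 0.21 ± 0.07 SE, adjusted p by edgeR = 0.209). The death gene rpr had 11.2 and 7.03 CPM in RMCE-2 and 7.24 and 21.7 CPM in RMCE-1, and hid 58.7 and 51.6 CPM in RMCE-2 and 50.8 and 71.6 CPM in RMCE-1. For both the highest library was RMCE-1 replicate 2, and the log2 ratio was -0.66 for rpr and -0.15 for hid with it, and 0.33 and 0.13 without it. The eye colour gene w, a common transgene marker, had 2.22 and 1.90 CPM in RMCE-2, 4.23 and 3.26 CPM in RMCE-1, 0.428 and 0.713 CPM in the knockout stock and 43.7 and 34.6 CPM in Canton S. Both RMCE stocks were far below Canton S, and their difference from each other was not called (log2 ratio -0.88 ± 0.24 SE, adjusted p by edgeR = 0.138).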

How the data were processed

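RNA from pooled eye discs was depleted of ribosomal RNA and sequenced as directional single-end libraries, per the labels. The values are whole-number counts of reads per gene that the authors deposited for each library. CASAVA 1.8.2, FastQC, TopHat2, featureCounts and Subread are named in the submitters' processing notes. The genome build, annotation and strand setting of the counting were found in no source used here. Symbols and positions came from the BDGP6.54 annotation by gene identifier, for 15002 of 15682 identifiers.

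All 8 libraries entered 1 edgeR 4.0.16 quasi-likelihood fit (R 4.3.3) with a mean per stock, TMM scaling and edgeR's filter on low counts, which left 11068 genes and 4 residual degrees of freedom. P-values were adjusted over all tested genes by Benjamini-Hochberg. The labels call the samples biological replicates and give no batch or date, so p-values measure the spread between these pools. The alternatives were other scalings and filters, the 4 RMCE libraries alone, a replicate block, each library left out, DESeq2 1.42.0 and, added after the data were seen, an exon length correction. Same-numbered replicates did not deviate together throughout, so the numbers were not taken as pairs. Pearson r over genes ran from -0.37 (knockout and RMCE-2) to 0.322 (Canton S and knockout). The fit was tested on simulated data. Exact intervals cover counting error only.

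The members, gene lists and rules were chosen with earlier results of these data known. Named genes were up to 12 rises and 12 falls of at least 2-fold and 5 CPM in the higher stock, called with and without RMCE-1 replicate 2, up to 6 each that were not called without it, called list members, the locus genes, and genes with no read in 1 stock. Falls without a symbol beyond 2 identifiers were not described one by one. Left out as well were CG13840, CG32085, stops, CG4757 and CG43338 (log2 ratios 3.26, 1.98, 1.56, -3.56 and -2.04), not called without RMCE-1 replicate 2. CG18302 had no read in RMCE-2 and 37 and 23 in RMCE-1, and CG18577 had 25 and 43 in RMCE-2 and none in RMCE-1. Only CG18302 of this pair was called. The called list member His-Psi:CR31754 (log2 ratio -0.49) and the uncalled gene grim were not described either.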

Additional observations from a re-analysis of the deposited data

How the results depend on the processing

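Genes called between RMCE-2 and RMCE-1 (186, 104 higher and 82 lower, 79 of them at least 2-fold, 23 in gene lists) varied with the settings. With only the 4 RMCE libraries 17 were called, 5 higher and 12 lower, 17 at least 2-fold and 4 in lists. The replicate block gave 55, with 30 higher and 25 lower, 33 at least 2-fold and 8 in lists, although the replicate numbers were not taken as pairs. DESeq2 called 410, with 259 higher and 151 lower, 131 at least 2-fold and 57 in lists. The exon length correction gave 117 with 53 higher, and library totals alone gave 184 higher. Without 1 library the counts ran from 18 to 274 (10 to 82 higher, 8 to 192 lower), from 13 to 118 at least 2-fold and from 1 to 62 in lists. Without both RMCE-1 replicate 2 and RMCE-2 replicate 1, 18 were called, 10 higher and 8 lower, 15 at least 2-fold and 2 in lists. The share of 2-fold calls on 3L or 3R was 100% with only the 4 RMCE libraries and ran from 64.9% to 93.8% without 1 library. Except where fewer samples enter by construction, the cause was not tested.

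Of the 53 named called genes, 4 were called in every setting and none changed sign. Libraries of the called genes did not overlap between the stocks, so a change of sign was hardly possible for them. Among genes not called, the log2 ratio of hid ran from -0.38 to 0.13 without 1 library and was 0.03 without the pair, that of rpr ran from -1.26 to 0.33, and that of skl was -0.63 without RMCE-2 replicate 2 and 1.06 without the pair. With 2 libraries per stock, a gene that was not called is not shown to be equal.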
